A study of Mus musculus with 12 samples.

Results

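The 9 genes described here encode the costimulatory and checkpoint molecules through which dendritic cells signal to T cells, namely Cd40, Cd80, Cd83, Cd86, Cd274, Pdcd1lg2, Icosl, Tnfsf4 and Tnfsf9. They were chosen by symbol, from a mouse GENCODE annotation, with earlier results of these data known. All 9 were found among the 55335 genes listed, and all 9 were among the 14357 genes that passed a filter on low counts and were tested. Bulk RNA-seq was carried out on bone marrow-derived dendritic cells (BMDC), which were grown from the marrow of CreER C57BL/6 mice with the cytokine GM-CSF for 6 days, with fresh medium every 2 days. CreER is a Cre recombinase fused to an estrogen receptor domain, expressed from the Rosa26 locus, and all 4 groups carried it. The mice were young adults of both sexes, and floating cells were selected with beads against CD11c before use. The WT group was untreated, and WTL received 100 ng/ml of lipopolysaccharide (LPS), the bacterial outer membrane component sensed by TLR4, for 3 h. WT + JSH23 received 100 µM of JSH-23, a compound that keeps RelA, a subunit of NF-κB, out of the nucleus, for 3 h, and WTL + JSH23 received JSH-23 for 3 h and then LPS for 3 h. Each group had 3 libraries, numbered 4 to 6 in WT and WTL and 1 to 3 in the groups with JSH-23. The methods describe 4-hydroxytamoxifen, which activates CreER, at the start of culture for deleting Ctcf, but do not say which of these 4 groups received it. The solvent given to the groups without JSH-23 and the number of mice behind a library are not given in the sources used here.

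A T cell needs a costimulatory signal beside the antigen signal. CD80 and CD86 give that signal through CD28 and are also bound by the inhibitory receptor CTLA-4, ICOS ligand gives it through ICOS, and the TNF-family ligands OX40L (Tnfsf4) and 4-1BBL (Tnfsf9) give it through OX40 and 4-1BB. PD-L1 (Cd274) and PD-L2 (Pdcd1lg2) act in the opposite direction, through the inhibitory receptor PD-1. CD40 is the receptor with which the dendritic cell receives CD40 ligand from a T cell, and CD83 is a surface marker of mature dendritic cells. Dendritic cells that sense LPS mature and are known to display more of the costimulatory molecules on their surface.

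Total expected counts, which are the read pairs assigned to genes by RSEM, ranged from 24664724 to 34837847 per library. All 13 dendritic cell markers on a list of such genes were tested, and their summed TPM (transcript abundance corrected for length and scaled to a common total per library) was between 27673 and 31246 in every library. Cd74 gave the largest part of this sum (mean 14122 TPM in WT), and single markers moved within it. The mean of Csf2rb was 1007 TPM in WT and 375 in WTL, and that of Fscn1 was 1192 and 2048. The summed TPM of 10 macrophage markers was 2986 to 3106 in WT, 2495 to 2651 in WTL, 1921 to 2005 in WT + JSH23 and 1614 to 1715 in WTL + JSH23, so that macrophage genes were also expressed and their sum moved with both treatments. The sums of 8 neutrophil markers were 195 to 218 in WT, 217 to 226 in WTL, 188 to 210.0 in WT + JSH23 and 171 to 190 in WTL + JSH23, those of 6 B cell markers reached at most 0.66, and those of 6 T and NK cell markers reached at most 6.56. The third WTL + JSH23 library stood apart from the other two of its group. The mean chi-square per gene was 8.18 and 9.11 in its pairs and 2.32 to 4.50 in the other pairs of libraries of the same group. No pair of libraries agreed within sampling noise, and the labels name no batch. P values measure the spread between these libraries, which may be technical. In bulk samples, a lower level in each cell and a smaller share of the cells that express a gene cannot be told apart.

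Promoter sequences from RefSeq were matched for 4 of the 9 genes and are shown because JSH-23 acts on NF-κB and these 4 genes differed in their response. Each is the 250 bases before the RefSeq transcription start on the plus strand of GRCm38.p6, at chr16:38458683-38458932 for Cd80, chr19:29367188-29367437 for Cd274, chr19:29410669-29410918 for Pdcd1lg2 and chr10:78069118-78069367 for Icosl. The Cd80 window lies within the gene as GENCODE draws it, downstream of the outermost GENCODE start, and the Icosl window overlaps the GENCODE start. Capitals mark matches to the motifs searched.
Cd80: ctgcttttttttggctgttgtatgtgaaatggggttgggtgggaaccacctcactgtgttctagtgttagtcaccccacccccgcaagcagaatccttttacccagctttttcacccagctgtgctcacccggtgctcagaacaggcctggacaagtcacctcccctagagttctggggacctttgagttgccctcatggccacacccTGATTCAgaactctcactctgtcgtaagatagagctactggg
Cd274: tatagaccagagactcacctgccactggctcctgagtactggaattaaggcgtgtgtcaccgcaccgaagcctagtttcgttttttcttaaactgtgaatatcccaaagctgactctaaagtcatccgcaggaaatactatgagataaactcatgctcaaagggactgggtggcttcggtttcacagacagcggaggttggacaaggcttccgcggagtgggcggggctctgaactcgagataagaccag
Pdcd1lg2: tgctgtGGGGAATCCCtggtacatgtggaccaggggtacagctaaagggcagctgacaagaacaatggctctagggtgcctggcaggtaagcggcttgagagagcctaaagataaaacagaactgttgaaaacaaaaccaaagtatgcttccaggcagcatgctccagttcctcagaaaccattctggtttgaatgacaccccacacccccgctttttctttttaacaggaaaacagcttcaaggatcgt
Icosl: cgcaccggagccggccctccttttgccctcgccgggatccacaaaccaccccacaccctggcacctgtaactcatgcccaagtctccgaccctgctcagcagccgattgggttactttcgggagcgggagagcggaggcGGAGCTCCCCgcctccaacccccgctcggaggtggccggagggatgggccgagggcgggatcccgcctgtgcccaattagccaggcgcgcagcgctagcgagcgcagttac
Both strands were searched for the κB consensus of NF-κB, for the core of the interferon-stimulated response element and, as separate motifs, for TGANTCA, TTCNNNGAA and TGACNNNGC. The κB consensus matched in Pdcd1lg2, 244 to 235 bases before the start, and in Icosl, 111 to 102 bases before it. TGANTCA matched in Cd80, 42 to 36 bases before the start, and none of the 5 motifs matched in the Cd274 window. Of 32851 mouse promoter windows of the same length, 7.25% held the κB consensus and 6.75% held TGANTCA, while the core of the interferon-stimulated response element was in 2.98%, TTCNNNGAA in 7.02% and TGACNNNGC in 10.2%. Of the 12991 windows that belong to genes tested here, 8.98% held the κB consensus and 4.60% held TGANTCA. A match describes the letters of a window and is no evidence of binding.

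To examine the response to LPS without JSH-23, WTL was compared with WT. Costimulatory genes rose, most of all Tnfsf9, Cd80 and Cd40, while the checkpoint ligand gene Pdcd1lg2 fell and its neighbor Cd274 rose by less than 2-fold. All 9 genes passed an adjusted p of 0.05 in edgeR, 8 higher and 1 lower. Of all genes tested 65.7% passed, 31.0% higher and 34.7% lower. The libraries of the groups did not overlap for any of the 9 genes, which was so for 69.9% of all genes tested. With a change of more than 2-fold also required, which is what "called" means below, 5 genes were called higher and 0 lower, beside 16.4% of all genes called, 7.36% higher and 9.09% lower. The median log2 fold change was 1.12 over the 9 genes and -0.05 over all genes tested. After JSH-23, LPS gave the same directions. WTL + JSH23 against WT + JSH23 had 8 genes higher and 1 lower at the adjusted p alone, beside 54.5% of all genes, 27.4% higher and 27.1% lower. Called were 4 higher and 0 lower, beside 10.3% of all genes, 5.85% higher and 4.49% lower. The groups again did not overlap for any of the 9 genes (59.1% of all genes), and the medians were 0.90 over the 9 genes and -0.02 over all.

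**Figure D1:**
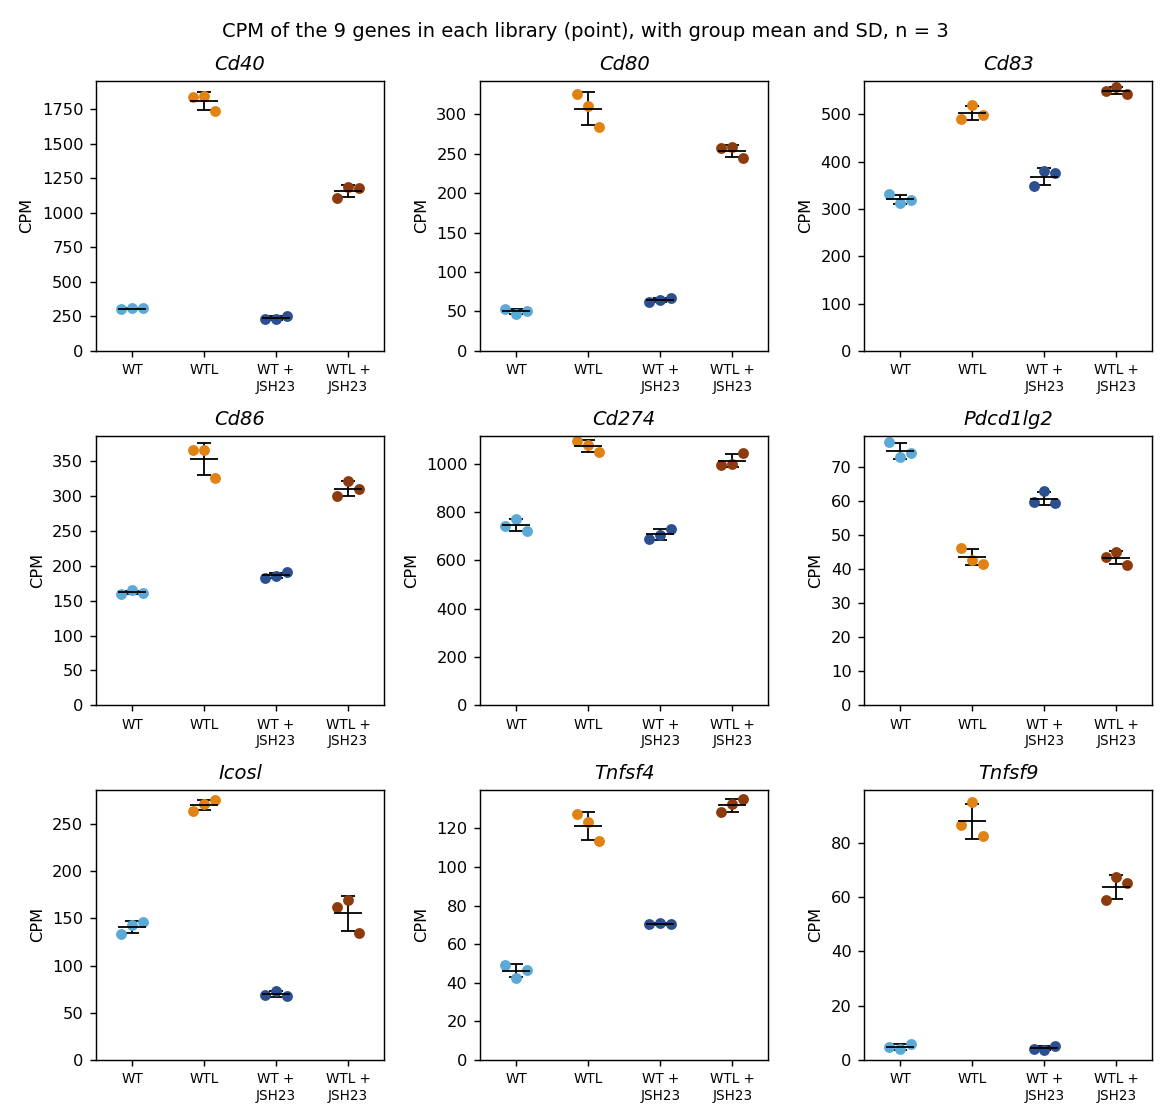
CPM (counts divided by the scaled library size, linear axes from 0) of each of the 9 genes in the 12 libraries, 1 panel per gene, with each point a library and the bars giving the group mean and SD (n = 3). The LPS groups WTL and WTL + JSH23 lie above their controls for every gene except Pdcd1lg2, where they lie below.

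Cd40 (ENSMUSG00000017652.16, chr2:165055627-165072948, plus strand) had the largest rise in CPM, which are counts divided by the scaled library size. Cd40 was at 301, 309.5 and 307 CPM in WT and at 1841, 1851 and 1735 CPM in WTL. After JSH-23 it was at 228, 230.2 and 251 CPM without LPS and at 1108, 1191 and 1180.3 CPM with LPS. Each LPS library was thus far above each library without LPS, and the 4 groups were fully separate. LPS raised Cd40 5.91-fold without JSH-23 (log2 fold change 2.56, SE 0.04, adjusted p = 2.93e-21) and 4.90-fold with JSH-23 (2.29, SE 0.04, adjusted p = 3.13e-20).

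The CD28 ligand genes Cd80 (ENSMUSG00000075122.5, chr16:38455561-38496335, plus strand) and Cd86 (ENSMUSG00000022901.13, chr16:36603869-36666081, minus strand) both rose, by different amounts. Cd80 was at 53.3, 47.1 and 50.3 CPM in WT and at 326, 311 and 284 CPM in WTL, and it was at 62.4, 64.6 and 66.4 CPM in WT + JSH23 and at 258, 259 and 245 CPM in WTL + JSH23. Its rise with LPS was 6.12-fold without JSH-23 (log2 fold change 2.61, SE 0.05, adjusted p = 4.11e-20) and 3.94-fold with it (1.98, SE 0.05, adjusted p = 5.17e-18). The order of the Cd80 groups was reversed between states, since the libraries with JSH-23 were all higher without LPS and all lower with LPS. Cd86 was at 159.8, 165 and 161 CPM in WT and at 367, 366 and 326 CPM in WTL, and it was at 183, 186 and 191 CPM in WT + JSH23 and at 300.0, 321 and 310.2 CPM in WTL + JSH23. Its rise was 2.18-fold without JSH-23 (log2 fold change 1.12, SE 0.04, adjusted p = 2.17e-15) and 1.67-fold with it (0.74, SE 0.04, adjusted p = 4.94e-12). In CPM the Cd86 libraries crossed over with JSH-23 in the same way as those of Cd80. In TPM the LPS groups of Cd86 overlapped, at 230 to 252 in WTL and 227 to 237 in WTL + JSH23, while those of Cd80 did not.

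Cd83 (ENSMUSG00000015396.4, chr13:43784775-43803132, plus strand) was already abundant without LPS and rose moderately. It was at 331, 312 and 319 CPM in WT and at 489.9, 519 and 499 CPM in WTL. With JSH-23 it was at 348, 380.3 and 376 CPM without LPS and at 549, 558 and 544 CPM with LPS, so that JSH-23 libraries were the higher ones in both states. The rise with LPS was 1.57-fold (log2 fold change 0.65, SE 0.04, adjusted p = 5.43e-12) and 1.5-fold (0.58, SE 0.04, adjusted p = 5.68e-11), under the 2-fold limit in both.

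The PD-1 ligand genes Cd274 (ENSMUSG00000016496.7, chr19:29367455-29388095) and Pdcd1lg2 (ENSMUSG00000016498.10, chr19:29410919-29471161) lie close together on the plus strand and moved in opposite directions with LPS. Cd274 was at 744, 773 and 722 CPM in WT and at 1095, 1075 and 1049 CPM in WTL, and it was at 687, 705 and 732 CPM in WT + JSH23 and at 993, 1000.1 and 1044 CPM in WTL + JSH23. The rise was 1.44-fold without JSH-23 (log2 fold change 0.52, SE 0.04, adjusted p = 7.21e-11) and 1.43-fold with it (0.52, SE 0.04, adjusted p = 1.55e-10). Cd274 thus rose by nearly equal factors in the presence and absence of JSH-23. Pdcd1lg2 was at 77.5, 72.9 and 74.1 CPM in WT and at 46.2, 42.8 and 41.7 CPM in WTL, and it was at 59.9, 63.0 and 59.3 CPM in WT + JSH23 and at 43.7, 45.1 and 41.3 CPM in WTL + JSH23. It was 1.72-fold lower with LPS without JSH-23 (log2 fold change -0.78, SE 0.05, adjusted p = 7.66e-12) and 1.40-fold lower with it (-0.48, SE 0.05, adjusted p = 3.85e-08). The 2 LPS groups overlapped for Pdcd1lg2, whereas the 2 groups without LPS were separate. Each of these genes overlaps an annotated antisense transcript, and Cd274 had fractional expected counts in all 12 libraries, so that its reads were in part divided with other transcripts.

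Icosl (ENSMUSG00000000732.9, chr10:78069302-78083913, plus strand), which encodes the ligand of ICOS, rose with LPS and had the largest change of the 9 with JSH-23 alone. It was at 133, 143 and 146 CPM in WT and at 264, 271 and 275 CPM in WTL. After JSH-23 it was at 68.6, 73.2 and 67.6 CPM without LPS and at 163, 169 and 134 CPM with LPS, of which the last is the library that stood apart. The range of the WTL + JSH23 libraries overlapped that of untreated WT cells only through the library that stood apart, and the others lay above every WT library. LPS raised Icosl 1.92-fold without JSH-23 (log2 fold change 0.94, SE 0.06, adjusted p = 1.03e-11) and 2.23-fold with it (1.16, SE 0.06, adjusted p = 1.39e-12), and the second value was 1.25 on the log2 scale without the library that stood apart.

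The TNF-family ligand genes were among the lowest of the 9 in WT, and both rose more than 2-fold without JSH-23. Tnfsf4 (ENSMUSG00000026700.4, chr1:161395409-161418410, plus strand), encoding OX40L, was at 49.1, 42.4 and 46.7 CPM in WT and at 127, 123 and 113 CPM in WTL, and it was at 70.3, 71.0 and 70.3 CPM in WT + JSH23 and at 129, 133 and 135 CPM in WTL + JSH23. It rose 2.64-fold with LPS without JSH-23 (log2 fold change 1.40, SE 0.05, adjusted p = 8.75e-16) and 1.87-fold with it (0.90, SE 0.05, adjusted p = 1.65e-12). The WT + JSH23 libraries lay above WT, so that the LPS response began from a higher level. Tnfsf9 (ENSMUSG00000035678.8, chr17:57105325-57107757, plus strand), encoding 4-1BBL, was at 4.53, 3.78 and 5.80 CPM in WT and at 86.5, 95.0 and 82.5 CPM in WTL, and it was at 4.03, 3.69 and 5.17 CPM in WT + JSH23 and at 58.9, 67.6 and 65.1 CPM in WTL + JSH23. Its rise was the largest of the 9 genes, 18.9-fold without JSH-23 (log2 fold change 4.24, SE 0.10, adjusted p = 5.93e-19) and 14.8-fold with it (3.89, SE 0.11, adjusted p = 9.36e-18). Tnfsf9 had from 102 to 168 expected counts in the libraries without LPS, fewer than any other of the 9 genes there, and from 1506 to 2850 in those with LPS. It overlaps a noncoding transcript on the other strand and had fractional counts in 6 libraries.

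**Figure D2:**
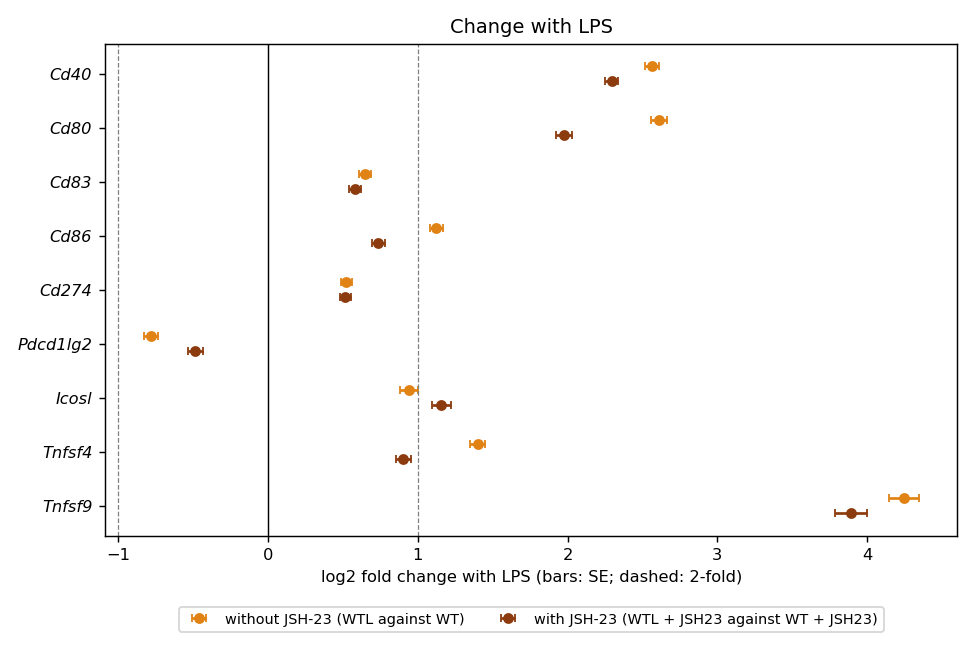
Log2 fold change with LPS for the 9 genes, without JSH-23 (WTL against WT) and with it (WTL + JSH23 against WT + JSH23), with SE bars and dashed lines at 2-fold. Tnfsf9 lies farthest to the right at 4.24 and 3.89, and Pdcd1lg2 alone lies left of 0.

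Scaling changed these sizes and no direction. On log2(TPM + 1) with limma, the median change of all genes moved by -0.21 in WTL against WT and by -0.14 in the comparison with JSH-23. On that scale Cd86 was at 0.90 and so under 2-fold, Pdcd1lg2 was at -1.10 and past it, and Icosl with JSH-23 was at 0.94 and under it. Cd274 was at 0.19 without JSH-23 and 0.31 with it. Under all 4 scalings tried, 8 genes were higher and Pdcd1lg2 was lower in both LPS comparisons.

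To examine the effect of JSH-23, WTL + JSH23 was compared with WTL and WT + JSH23 with WT. The library numbers differ between the groups with and without JSH-23, and whether both were made in 1 experiment is not given in the sources used here. If they were not, a difference between experiments and one with JSH-23 cannot be told apart, either here or in the interaction described below. In LPS-stimulated cells JSH-23 lowered Icosl, Cd40, Tnfsf9, Cd80 and Cd86, and none of the 9 genes changed by 2-fold. At the adjusted p alone 7 genes passed, 2 higher and 5 lower, beside 48.7% of all genes, 24.5% higher and 24.2% lower. With the fold limit 0 were called, beside 7.0% of all genes, 3.75% higher and 3.25% lower. The unadjusted p was under 0.05 for 8 of the 9 genes, and DESeq2 and limma on TPM also called 0. In CPM the groups did not overlap for 8 of the 9 genes (54.8% of all genes). In cells without LPS, 7 genes also passed the adjusted p, 4 higher and 3 lower, beside 41.0% of all genes, 18.8% higher and 22.1% lower. The fold limit left 1 call, lower, beside 5.37% of all genes, 2.43% higher and 2.94% lower. In CPM the groups did not overlap for 7 of the 9 genes (51.5% of all genes). The medians over the 9 genes were -0.19 with LPS and -0.08 without it, and those over all genes were 0.02 and -0.01. The summed macrophage markers given above were also lower with JSH-23 in both states, with 8 of the 9 tested lower at the adjusted p in each. Under LPS 6 of the 6 neutrophil markers tested were lower too (median log2 fold change -0.45). Of the 13 dendritic cell markers, 9 were lower and 1 higher with JSH-23 under LPS at the adjusted p (median -0.17). Without LPS 5 of them were lower and 2 higher. The part of any marker list in the changes of the 9 genes was not tested.

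Icosl fell the most with JSH-23. It was 2.02-fold lower without LPS (log2 fold change -1.01, SE 0.06, adjusted p = 2.52e-11) and 1.74-fold lower with LPS (-0.80, SE 0.06, adjusted p = 3.97e-10, or -0.70 without the library that stood apart). The first of these lies at the 2-fold limit, and the change was slightly smaller than 2-fold under upper quartile scaling and in a fit of the WT and WT + JSH23 libraries alone. It was also under 2-fold without WT replicate 6, WT + JSH23 replicate 1 or WT + JSH23 replicate 3, and the call was then lost while the adjusted p still passed. Cd40 was 1.29-fold lower without LPS (log2 fold change -0.37, SE 0.04, adjusted p = 3.29e-07) and 1.56-fold lower with LPS (-0.64, SE 0.04, adjusted p = 3.58e-11).

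Cd80 and Cd86 changed in opposite directions with JSH-23 in the 2 states. Cd80 was 1.28-fold higher in resting cells (log2 fold change 0.36, SE 0.05, adjusted p = 1.39e-05) and 1.21-fold lower in LPS-stimulated cells (-0.28, SE 0.05, adjusted p = 6.14e-05). Cd86 was 1.15-fold higher in resting cells (0.20, SE 0.04, adjusted p = 7.83e-04) and 1.14-fold lower in LPS-stimulated cells (-0.19, SE 0.04, adjusted p = 0.00109). The last value was -0.06 on log2(TPM + 1), with an adjusted p of 0.302 in limma. Cd83, by contrast, was higher with JSH-23 in both states, by 1.15-fold without LPS (adjusted p = 3.36e-04) and by 1.09-fold with LPS (log2 fold change 0.13, SE 0.04, adjusted p = 0.00957). The second of these did not pass without WTL replicate 4 (adjusted p = 0.0523).

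Of the PD-1 ligand genes, Pdcd1lg2 was 1.23-fold lower with JSH-23 in resting cells (log2 fold change -0.30, SE 0.05, adjusted p = 1.91e-05). In LPS-stimulated cells its difference was -0.01 (SE 0.05, adjusted p = 0.935). Cd274 had log2 fold changes of -0.08 in both states (SE 0.04, adjusted p = 0.113 without LPS and 0.0697 with it). The latter passed with DESeq2 size factors (adjusted p = 0.0214), with DESeq2 (0.0103) and without the WTL + JSH23 library that stood apart (0.0270). With limma on log2(TPM + 1) the direction turned, at 0.040 (adjusted p = 0.493), and all WTL + JSH23 libraries were above WTL in TPM.

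Among the TNF-family ligand genes, Tnfsf4 was 1.53-fold higher with JSH-23 in resting cells (log2 fold change 0.62, SE 0.05, adjusted p = 3.44e-09). In LPS-stimulated cells the difference was 0.12 (SE 0.05, adjusted p = 0.0469), at the threshold, and it passed in 9 of the 19 alternative fits. It did not pass without WT replicate 6, WTL replicate 5 or 6, any of the WT + JSH23 libraries, or WTL + JSH23 replicate 2 or 3 (adjusted p from 0.0522 to 0.244), nor with DESeq2 (0.126). Tnfsf9 was 1.38-fold lower in LPS-stimulated cells (log2 fold change -0.47, SE 0.07, adjusted p = 1.88e-05), a difference that did not pass with limma on log2(TPM + 1) (adjusted p = 0.0675). In resting cells, where Tnfsf9 was lowest, its difference was -0.11 (SE 0.15, adjusted p = 0.596).

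**Figure D3:**
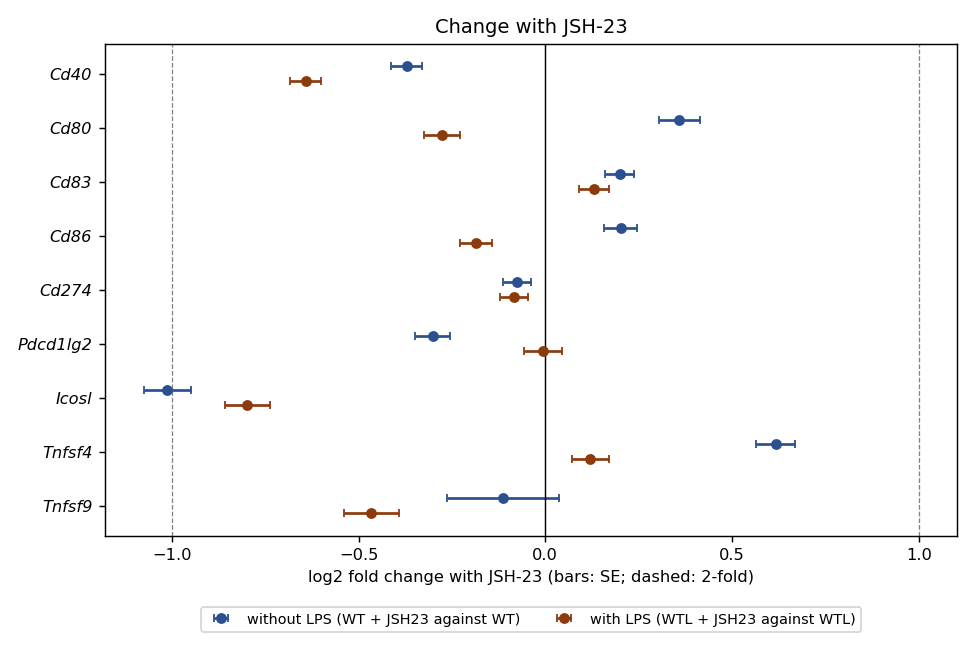
Log2 fold change with JSH-23 for the 9 genes, without LPS (WT + JSH23 against WT) and with LPS (WTL + JSH23 against WTL), with SE bars and dashed lines at 2-fold. Cd80 and Cd86 lie right of 0 without LPS and left of 0 with LPS, and Icosl lies farthest left in both states.

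Whether the LPS response itself differed with JSH-23 was tested as an interaction, in which the log2 change in the absence of JSH-23 is subtracted from that in its presence. At an adjusted p under 0.05, with no fold limit, 5 of the 9 genes passed, 4 negative and 1 positive, beside 18.0% of all genes, 8.44% negative and 9.54% positive. The response was smaller with JSH-23 for Cd80 (-0.64, SE 0.07, adjusted p = 4.12e-06), Tnfsf4 (-0.50, SE 0.07, adjusted p = 5.44e-05), Cd86 (-0.39, SE 0.06, adjusted p = 1.46e-04) and Cd40 (-0.27, SE 0.06, adjusted p = 0.00309). The positive value was that of Pdcd1lg2 (0.30, SE 0.07, adjusted p = 0.00519), whose fall was smaller with JSH-23. Its level with JSH-23 was lower at the start (log2 fold change -0.30 in resting cells) and differed by -0.01 with LPS. The interaction of Cd40 did not pass with limma on log2(TPM + 1), where it was -0.06 (adjusted p = 0.587). In CPM, Cd80 and Cd86 had higher levels with JSH-23 in resting cells and lower levels with LPS, and their negative interaction holds both. The level of Tnfsf4 was higher with JSH-23 in resting cells (log2 fold change 0.62) and not lower with LPS (0.12). Its negative interaction thus reflects the higher start and no lower level with LPS.

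The other 4 genes did not pass. Cd83 and Cd274 had interactions of -0.07 (SE 0.06, adjusted p = 0.446) and -0.01 (SE 0.05, adjusted p = 0.946). Icosl had 0.21 (SE 0.09, adjusted p = 0.0959), and without the WTL + JSH23 library that stood apart it had 0.31 and passed (adjusted p = 7.36e-04). Tnfsf9 had -0.35 (SE 0.17, adjusted p = 0.160), and without WT replicate 6, the WT library with its highest level, it had -0.52 and passed (adjusted p = 0.0402). With no filter on low counts both Icosl and Tnfsf9 passed (adjusted p = 0.0122 and 0.0407).

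The same responses on a linear scale were described by the increment in CPM with LPS, with no test. With JSH-23 the increment of Cd40 was 923 CPM, or 61.4% ± 4.07 (SD over 3 libraries per group, by error propagation) of the 1503 CPM gained without it. The share was 65.0% ± 9.84 for Cd86, 66.0% ± 15.2 for Icosl, 71.5% ± 7.78 for Tnfsf9 and 73.7% ± 6.87 for Cd80. For these 5 genes, the increments over all pairs of libraries with JSH-23 lay below all those without it. The pairs reuse the 3 libraries of each group, and the share of all genes with such a separation was not computed. Cd83 kept 100.0% ± 14.4, Cd274 kept 93.2% ± 14.7 and Tnfsf4 kept 81.7% ± 9.75, and the pair ranges of these overlapped. Pdcd1lg2 fell by 17.4 CPM with JSH-23 and fell by 31.3 CPM without it, a share of 55.5% ± 10.7. For Icosl, a larger fold change with JSH-23 thus stood beside a smaller increment.

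Levels of different genes were compared as TPM, which accounts for transcript length. In WT the order was Cd40 (401 TPM), Cd274 (358), Cd83 (259), Cd86 (128), Icosl (100.3), Pdcd1lg2 (86.4), Tnfsf4 (46.8), Cd80 (38.8) and Tnfsf9 (7.32), and no neighbors in this order overlapped. Cd40 was thus at the 97.4th percentile of the genes tested and Tnfsf9 at the 42.9th. In WTL the order was Cd40 (1784 TPM, at the 99.5th percentile), Cd274 (408.5), Cd83 (323), Cd86 (241), Cd80 (177), Icosl (153), Tnfsf9 (108), Tnfsf4 (97.6) and Pdcd1lg2 (39.8), again with no overlap. Cd80 moved up past Tnfsf4 and Icosl, Tnfsf9 moved past Tnfsf4, and Pdcd1lg2 moved from the sixth place to the last. In WT + JSH23 Cd274 led with 338 TPM, and Cd40 (299) and Cd83 (297), Tnfsf4 (71.4) and Pdcd1lg2 (69.9), and Icosl (49.2) and Cd80 (47.8) overlapped in pairs. In WTL + JSH23 Cd40 led again with 1273 TPM, Pdcd1lg2 was last with 43.2 TPM, and of neighbors in the order only Icosl (96.0) and Tnfsf9 (85.5) overlapped.

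**Figure D4:**
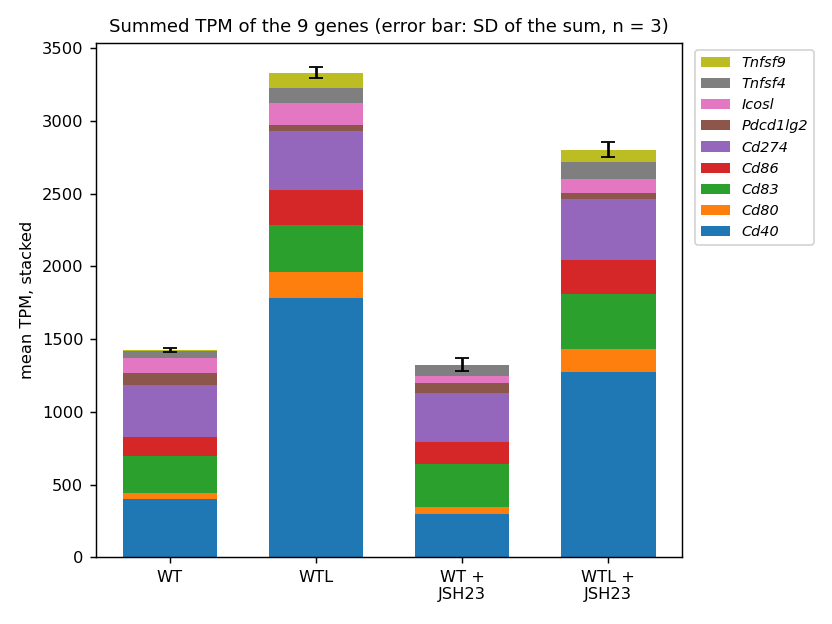
Mean TPM of the 9 genes stacked by group, with the error bar giving the SD of the summed TPM over 3 libraries. The sum rises from 1425 to 3333 with LPS and from 1326 to 2804 with LPS after JSH-23, and Cd40 makes up the largest block in both LPS groups.

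The summed TPM of the 9 genes was 1425 ± 15.9 in WT, 3333 ± 37.3 in WTL, 1326 ± 44.8 in WT + JSH23 and 2804 ± 53.9 in WTL + JSH23 (SD, n = 3). Cd40 took 28.1% ± 0.397 of the sum in WT and 53.5% ± 0.106 in WTL, and 22.5% ± 0.490 and 45.4% ± 0.847 in the groups with JSH-23. The share of Cd274 was 25.1% in WT and 12.3% in WTL although its own level rose. The share of Pdcd1lg2 was 6.07% in WT and 1.19% in WTL.

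Ligands of the same receptor were compared by the ratio of their TPM within each library. The ratio of Cd80 to Cd86 was 0.302 ± 0.0219 in WT, 0.736 ± 0.00565 in WTL, 0.325 ± 0.00331 in WT + JSH23 and 0.678 ± 0.0299 in WTL + JSH23. It was higher with LPS in every library, by 2.44-fold without JSH-23 and 2.08-fold with it. The ratio of Cd274 to Pdcd1lg2 was 4.14 ± 0.228, 10.3 ± 0.348, 4.85 ± 0.251 and 9.75 ± 0.703 in the same order, a difference of 2.48-fold and 2.01-fold with LPS. Each of these 4 LPS comparisons gave p = 0.1 in an exact two-sided permutation test, which is the smallest p that 3 libraries against 3 allow, and 0.133 after adjustment over the 8 tests made. With JSH-23 in LPS-stimulated cells the ratio of Cd274 to Pdcd1lg2 overlapped between groups (exact permutation p = 0.4).

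The mean transcript length that RSEM gives for a gene, weighted by the abundance of its transcripts, was used as a readout of the transcript mix, with no test. Cd80, for which GENCODE release M21 lists 3 transcripts of 1701, 3173 and 748 bases, had a mean length of 2345 ± 18.9 bases in WT, 2468 ± 4.86 in WTL, 2422 ± 2.43 in WT + JSH23 and 2519 ± 12.2 in WTL + JSH23. These 4 groups did not overlap, and the length was greater with LPS and greater with JSH-23. Cd86 has a protein-coding transcript of 2539 bases and 3 shorter transcripts without a coding label, of 548 to 975 bases. Its mean length was 2292 ± 30.6 in WT and 2293 ± 2.83 in WT + JSH23, and 2125 ± 29.1 in WTL and 2130 ± 4.68 in WTL + JSH23. The length of Cd86 was thus lower with LPS in every library and overlapped between groups with and without JSH-23. Cd40 was at 1485 ± 18.4 in WT and 1548 ± 12.4 in WTL, and at 1525 ± 27.5 in WT + JSH23 and 1521 ± 7.64 in WTL + JSH23, so that its length was greater with LPS in the absence of JSH-23 and overlapped between the groups with it. Cd274, Tnfsf4 and Tnfsf9 have 1 transcript each and therefore 1 length.

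**Figure D5:**
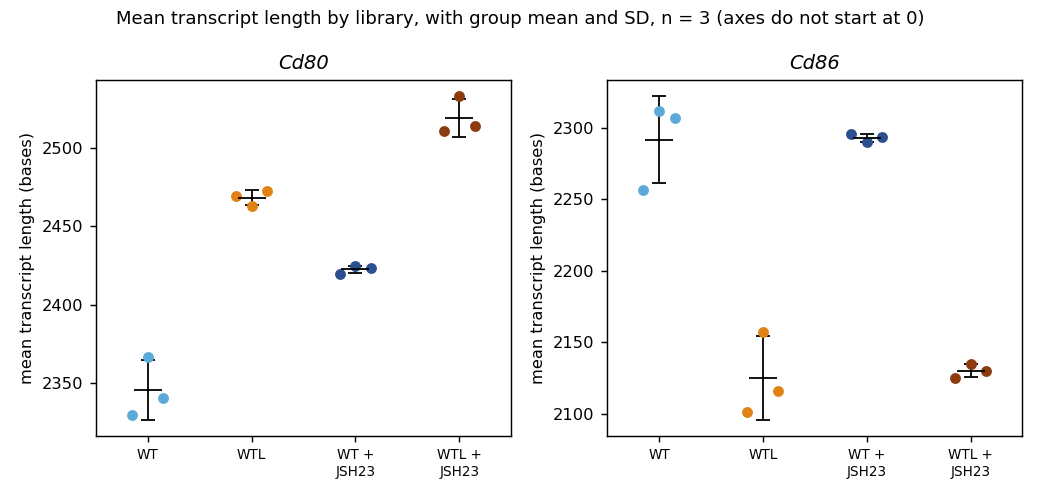
Mean transcript length in bases for Cd80 and Cd86 in each of the 12 libraries, with group mean and SD (n = 3) and axes that do not start at 0. For Cd80 the 4 groups are separate, and for Cd86 the LPS groups lie near 2125 bases and the others near 2292.

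Other genes of these pathways were followed through lists. Of 10 other B7 and immunoglobulin-family ligand genes, 9 were tested. LPS without JSH-23 called 4 higher and 1 lower, beside 7.36% and 9.09% of all genes. They were led by Pvr (log2 fold change 3.20), which encodes the ligand of TIGIT and CD226, by Cd200 (1.87) and, as the one that fell, by Vsir (-1.72), which encodes VISTA. With JSH-23, 4 were called higher and 1 lower, beside 5.85% and 4.49% of all genes, and Pvr (2.49), Icam1 (1.61) and Cd200 (1.26) changed most. Nectin2 was called lower with JSH-23 in LPS-stimulated cells (-1.18), the 1 gene of this list called there, beside 7.0% of all genes. The median change with LPS over the list was 0.23 without JSH-23 and 0.03 with it.

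Of 10 other TNF-family ligand genes 7 were tested, and LPS called 3 higher and 1 lower in each state, beside 16.4% of all genes called without JSH-23 and 10.3% with it. Tnfsf15, encoding TL1A, was at 36.8 ± 1.46 CPM in WT and 983 ± 79.6 in WTL (log2 fold change 4.74), and at 26.6 ± 1.95 and 489 ± 46.4 CPM in the groups with JSH-23 (4.21). Cd70, the ligand of CD27, was at 1.14 ± 0.0575 CPM in WT and 26.0 ± 2.88 in WTL (4.52), and reached 20.1 ± 2.04 CPM with LPS after JSH-23 (3.21). Tnfsf8 rose by 1.64 on the log2 scale without JSH-23, and Tnfsf10, which encodes TRAIL, fell by 1.09 with LPS after JSH-23. With JSH-23 in LPS-stimulated cells Tnfsf10, Tnfsf8 and Tnfsf15 were called lower (-1.86, -1.23 and -1.01), beside 3.25% of all genes. In resting cells Tnfsf10 was called lower with JSH-23 (-1.74), beside 2.94% of all genes. The interaction passed for 3 of the 7 genes (18.0% of all genes), all negative, namely Cd70 (-1.31), Tnfsf8 (-0.62) and Tnfsf15 (-0.54). The median LPS change over the 7 genes was -0.76 without JSH-23 and -0.44 with it.

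The receptors that bind these ligands are mostly T cell genes, and 6 of 8 were tested. Their summed TPM was 142 to 153 in WT, most of it from Tnfrsf9, which encodes the receptor of the Tnfsf9 product. The mean of Tnfrsf9 was 131 TPM in WT, 96.1 in WTL, 146 in WT + JSH23 and 127 in WTL + JSH23. With JSH-23 under LPS, 3 of the 6 genes were higher and 1 lower at the adjusted p. Tnfrsf9 was among those higher (log2 fold change 0.22, adjusted p = 6.01e-04). In the absence of JSH-23 Icos, at 5.41 ± 0.691 CPM in WT and 13.9 ± 0.701 CPM in WTL, rose by 1.37 on the log2 scale, and was lower with JSH-23 under LPS (-1.10). Cd28, at 2.16 CPM or less in each group mean, was called lower with LPS in both states (-1.39 and -1.03) and higher with JSH-23 under LPS (1.34). The T cell genes Cd3d, Cd3e and Cd3g reached at most 2.45 TPM.

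All 11 transducers of the CD40 signal were tested. LPS without JSH-23 called 3 higher, among them Tank (log2 fold change 1.24) and Nfkb2 (1.23), and 1 lower, the NF-κB-inducing kinase gene Map3k14 (-2.64), beside 7.36% and 9.09% of all genes. At the adjusted p alone 9 were higher and 1 lower, beside 31.0% and 34.7%. With JSH-23, Nfkb2 was called higher (1.04) and Map3k14 lower (-1.75). The interaction passed for 3 genes in each direction (9.54% of all genes positive and 8.44% negative), and that of Map3k14 (0.88) was the largest. JSH-23 called 0 of the 11 in either state in edgeR, beside 7.0% of all genes with LPS and 5.37% without it, and 9 of them passed the adjusted p alone with LPS and 6 without it, beside 48.7% and 41.0% of all genes.

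Of 5 regulators of PD-L1 and CD86 protein, all tested, Il10 was called higher with LPS, by 4.96 on the log2 scale without JSH-23 and by 4.47 with it, and its mean was 0.531 ± 0.129 CPM in WT and 16.4 ± 2.40 CPM in WTL. March1, which encodes a ubiquitin ligase that removes CD86 from the cell surface, was called lower with JSH-23 in resting cells (-1.13) and in LPS-stimulated cells (-1.18). Of 9 interferon-gamma and STAT regulators of Cd274, LPS called Socs1 (1.61) and Irf1 (1.35) higher, and did so after JSH-23 (1.75 and 1.70). Of all genes, 7.36% were called higher with LPS without JSH-23 and 5.85% with it. Socs1 was called lower with JSH-23 in resting cells (-1.12). At the adjusted p alone, 8 of these 9 were lower with JSH-23 under LPS and 7 without LPS, beside 24.2% and 22.1% of all genes lower.

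The genes whose log2 CPM followed each member most closely over the 12 libraries were found among 8174 protein-coding genes, by Pearson r and as a description. The 12 libraries are 4 groups of 3, so r mainly follows the 4 group means, and 252 to 797 genes per member had r above 0.95. The closest were Ccl3 and Rrs1 for Cd40, Fosl2 and Il6 for Cd80, Rfk and Stk17b for Cd86, and Egfr and Hif1a for Cd83. They were F10 and Nfkbia for Cd274, Prr5l and Arl5a for Pdcd1lg2, Tbc1d2b and Cers6 for Icosl, and Ahcyl1 and P2ry2 for Tnfsf4. All of these had r of at least 0.990.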

How the data were processed

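RNA-seq libraries of 12 BMDC samples were grouped by sample title. The authors aligned reads to mm10 with STAR 2.6.0c, and the deposited expected counts (read pairs per gene, divided by RSEM between genes they fit) and deposited TPM values are RSEM estimates per gene, as is the mean transcript length in bases. The GENCODE release and the RSEM version are not given in the sources used here. The labels name an rRNA depletion kit and the methods poly(A) selection, and which applied was not settled.

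Symbols and positions came from GENCODE M21 (55154 of 55335 identifiers matched without version). The 9 genes and the gene lists were chosen with earlier results of these data known. Expected counts were rounded, filtered with filterByExpr and scaled with TMM factors. A quasi-likelihood F-test of edgeR 4.0.16 (R 4.3.3) was fitted to all 12 libraries with a mean for each group and 8 residual degrees of freedom, with Benjamini-Hochberg adjustment over 14357 genes. Where no tool is given, an adjusted p is that of edgeR. SE is the absolute log2 fold change divided by the square root of F. The fit recovered known increases in simulated counts, in which few genes were changed, all upward, with the same dispersion for every gene. How the fit does when most genes change, as with LPS here, was not simulated. Ratios were tested with scipy 1.17.1.

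Besides the 9 genes, up to 3 called genes per list and comparison were named, by size of change, and 2 genes per member by likeness, among genes whose highest group mean reached 10 CPM (those for Tnfsf9 are not reported here). Alternatives were DESeq2 size factors, upper quartile scaling, DESeq2 1.42.0, limma 3.58.1 on log2(TPM + 1), other filters (none, or a mean of at least 1 CPM), only the groups compared, a replicate block, other fold limits and leaving out each library. No table column of per-sample values was left unused for lack of a sample.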

Additional observations from a re-analysis of the deposited data

Results flagged for a closer look

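For 5 of the 9 genes the LPS change with JSH-23 differed from the LPS change without it by the interaction test of edgeR, which 18.0% of all genes tested also passed. The interaction, on the log2 scale, was -0.64 for Cd80 (log2 fold change with LPS 2.61 without JSH-23 and 1.98 with it), -0.50 for Tnfsf4 (1.40 and 0.90), -0.39 for Cd86 (1.12 and 0.74) and -0.27 for Cd40 (2.56 and 2.29). It was 0.30 for Pdcd1lg2 (-0.78 and -0.48). For each of the 5, the sign held in all 12 fits that left out a library, and the adjusted p stayed under 0.05 in those fits.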

How the results depend on the processing

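Counts are given for LPS without JSH-23, LPS with JSH-23, JSH-23 with LPS and JSH-23 without LPS, in this order. For these, limma on log2(TPM + 1) called 1344, 612, 403 and 317 genes, and 1664 in the interaction. Without a fold limit 9437, 7828, 6994 and 5881 genes and 9, 9, 7 and 7 of the 9 genes passed. With a 2-fold limit added to the interaction, 192 genes and 0 of the 9 passed. A mean of at least 1 CPM left 511 genes in WT + JSH23 against WT. In that comparison, upper quartile scaling and the fit of only the groups compared each called 0 of the 9 genes, against 1. Genes higher and lower were 403 and 941 on TPM in WTL against WT (1056 and 1305 in edgeR), 940 and 1541 there under upper quartile scaling, and in the interaction 1356 and 308 on TPM, 1150 and 1474 with DESeq2 size factors and 1000 and 1436 with DESeq2 (1370 and 1212 in edgeR). The cause of these shifts was not tested. Leaving out a library gave 2301 to 2449, 1451 to 1513, 924 to 1075 and 703 to 803 genes, and 1880 to 2838 in the interaction. Of the 9 genes it gave 5, 4, 0 and 0 to 1, and 5 to 6 in the interaction.

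Signs changed only for differences that did not pass. Pdcd1lg2 in WTL + JSH23 against WTL was 0.0085 under upper quartile scaling, 0.11 on TPM and 0.0027 in the fit of only the groups compared, and Cd274 there was 0.040 on TPM. In the interaction Cd83 was 0.050 on TPM, and Cd274 was 0.12 on TPM and 4.9e-05 with a mean of at least 1 CPM. Leaving out a library gave -0.035 to 0.038 for Pdcd1lg2 in WTL + JSH23 against WTL (above 0 without WTL replicate 4 or WTL + JSH23 replicate 3), -0.26 to 0.052 for Tnfsf9 in WT + JSH23 against WT (above 0 without WT replicate 6) and -0.033 to 0.016 for Cd274 in the interaction. Of the log2 fold changes of the 9 genes under alternatives, 844 kept direction and call and 15 changed sign.

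With a replicate block, 2359, 1484 and, in the interaction, 2968 genes and 5, 4 and 6 of the 9 genes were called, Icosl (0.21, adjusted p = 0.0200) being the addition. Deviations of same-numbered libraries had correlations of 0.0142 to 0.0614, and those of differently numbered libraries had -0.0564 to 0.0355. WT + JSH23 replicate 1 followed WTL + JSH23 replicate 2 more closely than its own number, while each other library without LPS was closest to its own. The sources used here do not state that the numbers pair libraries, and they are not treated as pairs. Without LPS, Tnfsf9 had the fewest expected counts of the 9 genes, 102 to 168 per library.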
